A study of Mus musculus with 6 samples.

Results

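The genes examined here are 37 mouse genes that fold proteins in the endoplasmic reticulum (ER), sense and answer misfolded protein there (the unfolded protein response, UPR), or carry proteins into and out of the ER. They were chosen by name, as the rows of the deposited count table with the 37 symbols, out of 24421 gene rows, a rule that uses no measured value, although the symbols were chosen with earlier results of these data known. The libraries came from mouse induced pluripotent stem cells (iPSCs), cells reprogrammed to a state like that of embryonic stem cells. Per the labels, 3 libraries were of cells with the Srf gene deleted on both alleles (SRFΔ/Δ, called SRF KO) and 3 of cells with both alleles flanked for deletion but intact (SRFf/f, called WT). Srf encodes serum response factor, a transcription factor of cytoskeletal and immediate-early genes. Both were grown in medium with serum. The labels do not say how the deletion was induced, whether a group is 1 clone or several, or whether feeder cells were present. P-values therefore measure the spread between these libraries, which may be technical.

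Proteins that enter the secretory pathway are threaded through the Sec61 channel into the ER, where chaperones and disulfide isomerases fold them, and folded cargo leaves in vesicles with a COPII coat. When unfolded protein builds up, the sensors IRE1 (gene Ern1), ATF6 and PERK (gene Eif2ak3) raise transcription through the factors XBP1, cleaved ATF6 and ATF4. ATF4 also acts downstream of other kinases, among them one that senses amino acid shortage. Cells that secrete much matrix or carrier protein, such as extraembryonic endoderm, are known for high levels of this machinery, while pluripotent stem cells secrete comparatively little.

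Promoter sequences are shown first because the binding motifs of these factors are well known. The RefSeq promoter table (build GRCm38.p6, the same assembly as mm10, which the submitters' processing notes name) holds 250 bases before to 50 bases after the start of 33 of the 37 genes. Hyou1, Manf, Atf6 and Sec61a1 had no entry. Both strands were searched for the ER stress response element ERSE (CCAAT, any 9 bases, then CCACG), for ERSE-II (ATTGG, any 1 base, then CCACG), for the UPR element UPRE (TGACGTGG), for the ATF4 element CARE (TGATGNAA) and for the CArG box, the site of serum response factor. The motifs overlap in letters, since ERSE-II holds both outer parts of ERSE, the first of them read on the other strand, and UPRE holds CCACG read on the other strand. A match is a run of letters and not a shown binding site. In the windows below, written 5′ to 3′ on the strand of the gene, capitals mark the match. They comprise the ERSE of the main ER chaperones, the ERSE-II and UPRE of members that rose, and the CARE of members that moved in opposite directions.
Hspa5 (chr2:34771995-34772074, plus strand): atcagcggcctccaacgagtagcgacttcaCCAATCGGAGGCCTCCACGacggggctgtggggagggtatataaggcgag
Calr (chr8:84847044-84847123, minus strand): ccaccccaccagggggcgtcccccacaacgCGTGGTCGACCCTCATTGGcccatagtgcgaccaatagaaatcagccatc
Hsp90b1 (chr10:86705520-86705669, minus strand): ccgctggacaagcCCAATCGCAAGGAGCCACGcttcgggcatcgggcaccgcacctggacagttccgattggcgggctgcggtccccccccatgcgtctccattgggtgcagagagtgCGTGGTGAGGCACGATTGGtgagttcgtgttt
Dnajb11 (chr16:22857843-22857872, plus strand): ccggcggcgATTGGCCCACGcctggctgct
Herpud1 (chr8:94386288-94386417, plus strand): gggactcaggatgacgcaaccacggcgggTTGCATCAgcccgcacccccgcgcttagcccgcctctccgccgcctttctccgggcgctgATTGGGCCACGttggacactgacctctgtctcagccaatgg
Sec24d (chr3:123267459-123267488, plus strand): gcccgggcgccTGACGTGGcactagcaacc
Chac1 (chr2:119351023-119351082, plus strand): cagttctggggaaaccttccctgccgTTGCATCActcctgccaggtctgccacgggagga
Trib3 (chr2:152344028-152344057, minus strand): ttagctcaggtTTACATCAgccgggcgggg
Asns (chr6:7693210-7693269, minus strand): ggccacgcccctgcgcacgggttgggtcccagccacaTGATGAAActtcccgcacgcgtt

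ERSE was found in 8 of the 33 members with a promoter (24.2%), namely Hspa5, Hsp90b1, Calr, Canx, Pdia6, Dnajc3, Creld2 and Syvn1. It was found in 0.137% of the 27025 genes in the table. Hsp90b1 carried it at both -212 to -194 and -107 to -89, counted from the base before the gene start as -1. Herpud1 carried ERSE-II at -52 to -42 and CARE at -112 to -105, so that letters of both kinds of factor stood in 1 promoter. Dnajb11 was the other member with ERSE-II, which 0.0444% of genes had. CARE was found in Chac1, Trib3, Asns and Herpud1, against 4.51% of genes. UPRE was found in Sec24d and Sec23a, against 0.714% of genes. The CArG box was found in Herpud1 alone among the members, at 37 to 46 after the start, against 1.81% of genes.

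Counts per library ranged from 26321602 to 36680156. The targeted gene went the way of the labels: Srf stood at 3.97 ± 0.707 CPM (SRF KO) and 34.5 ± 4.14 CPM (WT; SD, n = 3 each). Its log2 fold change was -3.12 (SE 0.128, adjusted p 8.1e-09). All log2 fold changes here are of SRF KO over WT. Adjusted p-values are those of the quasi-likelihood test in edgeR, corrected by Benjamini-Hochberg for every gene and transposable element subfamily in the fit. WT replicate 2 stood apart from the other WT libraries, with a chi-square per degree of freedom of 15.2 and 18.2 against them, and 4.36 between those. The members' counts of calls are therefore also given without it, and those of other lists where they moved by over 1.5 times. The pluripotency factor Pou5f1 was at 773 ± 11.3 CPM (SRF KO) and 818 ± 52.4 CPM (WT; SD, n = 3 each) and Nanog at 256.5 ± 2.03 CPM (SRF KO) and 444 ± 3.01 CPM (WT; SD, n = 3 each). Both groups thus expressed defining genes of their labelled cell type.

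Most genes of ER folding and export rose modestly in SRF KO. Of the 37 members, all of which passed the filter on low counts, 24 were higher and 2 were lower at an adjusted p under 0.05, and 11 did not pass. Over all 14778 genes tested, 21.2% were higher and 21.3% lower, together 42.4%. The members' shares were 64.9% and 5.41%. Because every member had a WT mean of at least 10 CPM (a count divided by its library's TMM-scaled total), the 9004 genes at or above that level were also counted, and 17.2% of those were higher and 25.3% lower. The median log2 fold change of the members was 0.23, against -0.013 over all genes tested. Fold changes ran from -0.56 for Ero1l to 0.90 for Chac1, and 31 of 37 were above 0. In 28 members (75.7%) the ranges of both groups were separate, against 52.7% of all genes tested and 53.1% of those at 10 CPM or more. Without WT replicate 2, 25 members were higher and 2 lower, against 24.3% and 25.4% of all genes tested, together 49.7%. The summed level of the members was 8909, 9172 and 8857 CPM in SRF KO and 7435, 7908 and 7285 CPM in WT, each for replicates 1 to 3, the order kept for all values below. In bulk RNA a change in the share of cells that express a gene cannot be told apart from a change of its RNA per cell.

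**Figure D1:**
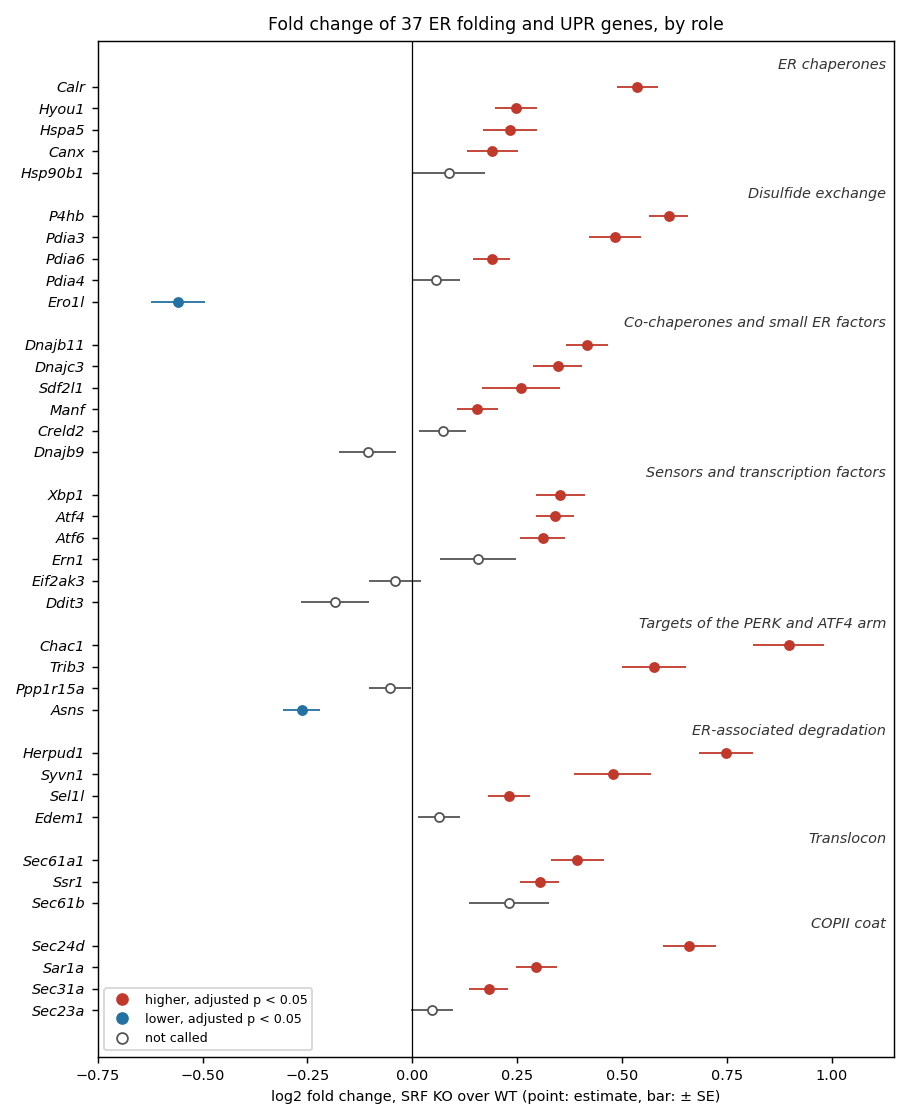
Log2 fold change of each of the 37 genes, SRF KO over WT, in blocks by role. Points are edgeR estimates from 3 libraries a group, bars are ± SE, red is higher and blue lower at an adjusted p under 0.05, and open points did not pass. Red points occur in all 8 blocks, and the blue points are Ero1l at -0.56 and Asns at -0.26.

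Among the chaperones, the lectin chaperone calreticulin rose most and the ER Hsp90 did not pass the test. Calr, which holds newly made glycoproteins until they fold, had SRF KO values of 959, 975 and 962 CPM and WT values of 669, 693.5 and 634.5 CPM. The groups lay far apart, and its log2 fold change was 0.54 (SE 0.0497, adjusted p 6.46e-06). Hspa5 encodes BiP, the ER Hsp70 that also keeps the stress sensors inactive, and had SRF KO values of 793, 867 and 771 CPM and WT values of 684, 741 and 644 CPM. All SRF KO values were above all WT values, but the gap was small beside the spread, with a log2 fold change of 0.23 (SE 0.0637, adjusted p 0.0121). The call of Hspa5 was lost without SRF KO replicate 2, its highest library (0.19, adjusted p 0.0609).

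Hyou1, an ER partner of BiP that helps it exchange nucleotide, had SRF KO values of 273, 264 and 267 CPM and WT values of 228, 214 and 235 CPM, a log2 fold change of 0.25 (SE 0.0504, adjusted p 0.00211). Canx, the membrane-bound relative of calreticulin, changed by 0.19 (SE 0.0606, adjusted p 0.0256), a call that was lost in 5 of the 6 fits that each left out 1 library (adjusted p 0.0601 to 0.104) and kept only without WT replicate 2. Hsp90b1, the ER Hsp90, had SRF KO values of 1221, 1341 and 1204 CPM and WT values of 1114, 1371 and 1058 CPM. WT replicate 2 was the highest of all 6 libraries for it, and the log2 fold change of 0.089 (SE 0.0861, adjusted p 0.444) became 0.21 (adjusted p 0.00151) without that library. WT replicate 2 was also the highest WT library for Hspa5, Calr and Canx. Per kilobase of exon, Hsp90b1 had the highest WT level of all members and Calr the next, at 293 and 231 CPM per kb. In SRF KO the order of these was turned, at 311.5 and 335 CPM per kb, and that change of order was not tested.

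The disulfide enzymes were split. P4hb, protein disulfide isomerase itself and also a subunit of the enzyme that hydroxylates collagen, had SRF KO values of 663, 643 and 669 CPM and WT values of 434, 419.7 and 438 CPM. The 2 groups were separated by a wide gap, and the log2 fold change was 0.61 (SE 0.0466, adjusted p 1.45e-06). Pdia3, the isomerase that works with calreticulin and calnexin, had SRF KO values of 638, 695 and 629 CPM and WT values of 456.5, 504 and 443 CPM and changed by 0.48 (SE 0.0612, adjusted p 7.49e-05). In both genes each SRF KO value exceeded each WT value. Pdia6 rose by less, 0.19 (SE 0.0443, adjusted p 0.00497), with WT values within 294 to 296 CPM. Pdia4 had overlapping groups and changed by 0.056 (SE 0.0573, adjusted p 0.467), and it passed the test only without WT replicate 2 (0.12, adjusted p 0.0338).

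Ero1l, which encodes the oxidase that recharges protein disulfide isomerase and is known to respond to low oxygen, went the other way. It had SRF KO values of 103, 114 and 109.8 CPM and WT values of 148, 173 and 161 CPM. The highest SRF KO value lay under the lowest WT value, and the log2 fold change was -0.56 (SE 0.0639, adjusted p 3.45e-05). Ero1lb, the related oxidase and not 1 of the 37, was also lower, at -0.37 (SE 0.0949, adjusted p 0.00832), and was named after its value was seen.

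Of the co-chaperones and small ER proteins, 4 of 6 rose and none was lower by edgeR's test, by DESeq2's or at an unadjusted p under 0.05 (0 in each). Dnajb11, the J-domain partner of BiP whose promoter window holds ERSE-II, had SRF KO values of 82.2, 80.7 and 77.96 CPM and WT values of 59.5, 62.3 and 58.5 CPM, a log2 fold change of 0.42 (SE 0.0506, adjusted p 5.51e-05). Dnajc3, another J-domain partner, had SRF KO values of 59.6, 59.6 and 55.9 CPM and WT values of 44.4, 48.6 and 44.7 CPM and changed by 0.35 (SE 0.0578, adjusted p 0.000574). The SRF KO values of both stood above every WT value. Manf, a small protein secreted under ER stress, had SRF KO values of 109, 106 and 103 CPM and WT values of 96.8, 96.2 and 92.2 CPM, with a log2 fold change of 0.16 (SE 0.0479, adjusted p 0.022). Sdf2l1, which binds Dnajb11 protein, changed by 0.26 (SE 0.0929, adjusted p 0.0425). The call of Manf was lost without SRF KO replicate 1 or 2 or WT replicate 1 or 3 (adjusted p 0.0532 to 0.116). That of Sdf2l1 was lost without SRF KO replicate 1 or 3 or WT replicate 2 or 3 (adjusted p 0.0518 to 0.146). Creld2 and Dnajb9 did not pass, at 0.073 (SE 0.0560, adjusted p 0.328) and -0.11 (SE 0.0677, adjusted p 0.238), and Dnajb9, a textbook target of XBP1, had overlapping groups.

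**Figure D2:**
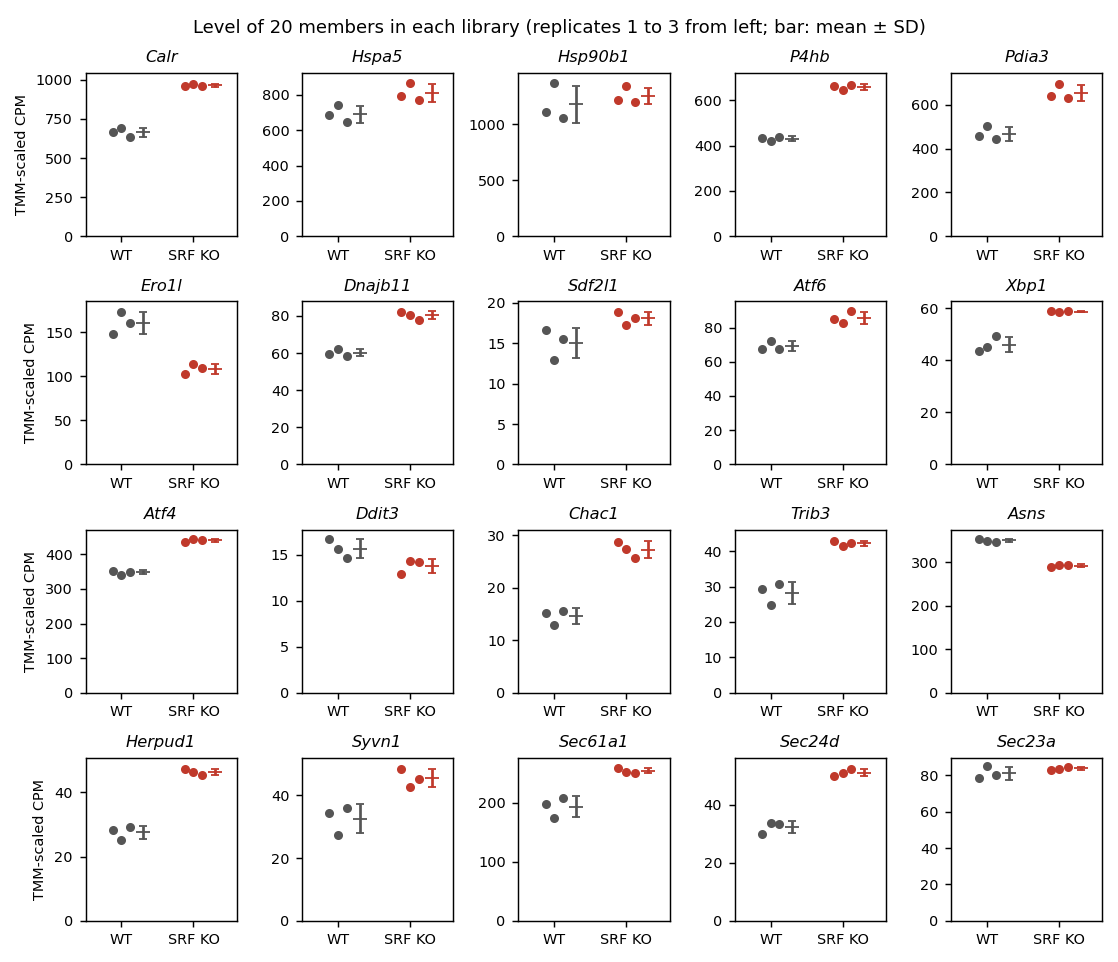
TMM-scaled CPM of 20 of the 37 genes in each library, on axes that start at 0. Dots are replicates 1 to 3 from left to right (grey WT, red SRF KO), and the bar beside them is the mean ± SD. Calr, P4hb, Chac1, Herpud1 and Sec24d show SRF KO dots clear above the WT dots, Ero1l and Asns clear below, and Hsp90b1 and Sec23a overlap.

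Next, the sensors and their transcription factors were examined. Atf6, whose cleaved form binds ERSE together with the CCAAT-binding factor, had SRF KO values of 85.04, 82.5 and 89.6 CPM and WT values of 67.5, 72.3 and 67.5 CPM, a log2 fold change of 0.31 (SE 0.0535, adjusted p 0.000708). Ern1, the sensor whose nuclease splices Xbp1 RNA, had SRF KO values of 11.3, 10.7 and 12.2 CPM and WT values of 10.02, 9.56 and 11.1 CPM and Eif2ak3, the sensor kinase PERK, had SRF KO values of 34.4, 31.99 and 31.6 CPM and WT values of 32.8, 33.9 and 34.2 CPM. Their groups overlapped, at 0.16 (SE 0.09, adjusted p 0.187) and -0.041 (SE 0.0610, adjusted p 0.626). Of the 3 sensors, Atf6 thus passed the test, while the differences between their changes were not tested.

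Xbp1 had SRF KO values of 58.8, 58.6 and 58.8 CPM and WT values of 43.5, 45.2 and 49.4 CPM. Its SRF KO values were nearly equal to each other and above all WT values, with a log2 fold change of 0.35 (SE 0.0583, adjusted p 0.000541). Atf4 had SRF KO values of 436, 443 and 442 CPM and WT values of 353, 341.5 and 349 CPM, again without overlap, and changed by 0.34 (SE 0.0448, adjusted p 0.000102). Gene counts do not show splicing of Xbp1 RNA, cleavage of ATF6 or translation of ATF4, by which these factors are mainly controlled. Ddit3 encodes CHOP, the factor linked to cell death under lasting ER stress, and had SRF KO values of 12.9, 14.3 and 14.2 CPM and WT values of 16.7, 15.6 and 14.6 CPM. All its SRF KO values were under the WT values, but the log2 fold change of -0.18 (SE 0.0809, adjusted p 0.0901) did not pass the test.

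The targets of the PERK and ATF4 arm moved in both directions. Chac1, which encodes an enzyme that degrades glutathione, had SRF KO values of 28.8, 27.3 and 25.7 CPM and WT values of 15.2, 12.9 and 15.6 CPM. This was the largest change among the members, at 1.86-fold, with a log2 fold change of 0.90 (SE 0.0850, adjusted p 7.62e-06). Trib3, a pseudokinase induced by ATF4 and CHOP, had SRF KO values of 43, 41.5 and 42.45 CPM and WT values of 29.2, 24.9 and 30.9 CPM and rose by 0.58 (SE 0.0766, adjusted p 0.000109). Asns, asparagine synthetase, had SRF KO values of 288, 292 and 294 CPM and WT values of 354, 349.6 and 346.5 CPM. Its groups were tight and did not overlap, and its log2 fold change was -0.26 (SE 0.0444, adjusted p 0.000619). The promoter windows of Chac1, Trib3 and Asns all hold CARE, shown above, and their fold changes had opposite signs. Ppp1r15a, which encodes the phosphatase subunit that ends the PERK signal, had SRF KO values of 72.7, 69.9 and 75.3 CPM and WT values of 73.8, 77.6 and 74.8 CPM and did not pass, at -0.053 (SE 0.0509, adjusted p 0.44). Per kilobase of exon, Asns was far above Chac1 and Trib3 in WT, at 128, 8.91 and 13.3 CPM per kb.

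In ER-associated degradation, by which misfolded proteins are drawn back to the cytosol, 3 of 4 members rose. Herpud1, a scaffold of the degradation complex with ERSE-II and CARE in its window, had SRF KO values of 47.3, 46.4 and 45.5 CPM and WT values of 28.3, 25.3 and 29.1 CPM. The SRF KO values were closely spaced and the log2 fold change was 0.75 (SE 0.0652, adjusted p 4.02e-06). Syvn1, the ubiquitin ligase HRD1, had SRF KO values of 48.5, 42.7 and 45.3 CPM and WT values of 34.2, 27.4 and 36.1 CPM and Sel1l, its adaptor, had SRF KO values of 73.25, 75.01 and 73.8 CPM and WT values of 61.03, 65.8 and 62.5 CPM. They changed by 0.48 (SE 0.0920, adjusted p 0.00148) and 0.23 (SE 0.0505, adjusted p 0.00334), without overlap between the groups. WT replicate 2 was the lowest library for both Herpud1 and Syvn1, and both calls held without it. Edem1, which trims or recognises mannose on doomed glycoproteins, had SRF KO values of 69.98 to 74.4 CPM just above WT values of 67.7 to 69.9 CPM. It did not pass, at 0.064 (SE 0.0493, adjusted p 0.33).

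Of the translocon genes, Sec61a1, the channel itself, had SRF KO values of 259, 252 and 251 CPM and WT values of 198, 174 and 208 CPM, a log2 fold change of 0.39 (SE 0.0632, adjusted p 0.000447). Ssr1, a subunit of the translocon-associated complex, had SRF KO values of 226, 228 and 221 CPM and WT values of 180, 188 and 179 CPM and changed by 0.30 (SE 0.0464, adjusted p 0.000316). Both were without overlap. Sec61b, the small subunit, was close to the threshold at 0.23 (SE 0.0945, adjusted p 0.0708). It passed without WT replicate 1 (0.34, adjusted p 0.0134) and under DESeq2 (adjusted p 0.0463).

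Within the COPII coat the cargo adaptor Sec24d stood out in size. It had SRF KO values of 49.9, 51.03 and 52.5 CPM and WT values of 29.99, 33.8 and 33.4 CPM, a log2 fold change of 0.66 (SE 0.0626, adjusted p 7.61e-06). Its inner-coat partner Sec23a had SRF KO values of 83.1, 83.6 and 84.7 CPM and WT values of 78.3, 85.1 and 80.25 CPM and did not pass, at 0.046 (SE 0.0501, adjusted p 0.494), although both windows hold UPRE. Sar1a, the GTPase that starts the coat, had SRF KO values of 129, 123 and 130.2 CPM and WT values of 105.5, 106 and 100.5 CPM and rose by 0.30 (SE 0.0487, adjusted p 0.000528). Sec31a of the outer coat had SRF KO values of 238, 240.2 and 242 CPM and WT values of 217, 204 and 213 CPM and rose by 0.18 (SE 0.0467, adjusted p 0.00856). Neither overlapped WT.

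**Figure D3:**
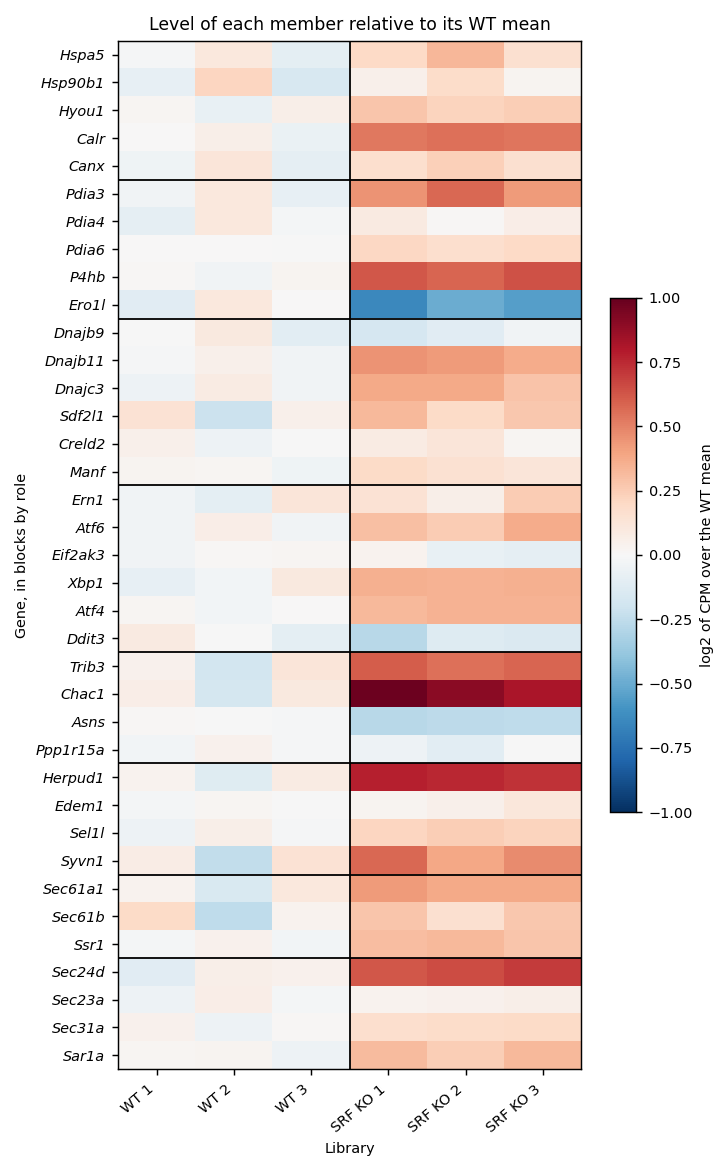
Log2 of each library's CPM over the WT mean of the same gene, for the 37 genes in blocks by role (rows) and the 6 libraries (columns). Red is above and blue below the WT mean. SRF KO columns are red in most rows. All 3 are below the WT mean for Ero1l and Asns, and also for Ddit3, Dnajb9 and Ppp1r15a, which were not called. WT 2 differs from WT 1 and WT 3 in both directions.

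Fold changes were then set beside the promoter motifs. Of the 8 members with ERSE, 6 were higher and the other two had fold changes above 0, with a median log2 fold change of 0.21. Of the 18 members with a promoter window but with none of ERSE, ERSE-II, UPRE and CARE, 9 were higher, 1 was lower and the median was 0.21. The members with ERSE that did not pass were Hsp90b1, which holds the motif at 2 places, and Creld2. Both members with ERSE-II rose, and of the 4 members with CARE 3 rose and 1 fell. These are descriptions of a few genes, with no test of the motif.

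**Figure D4:**
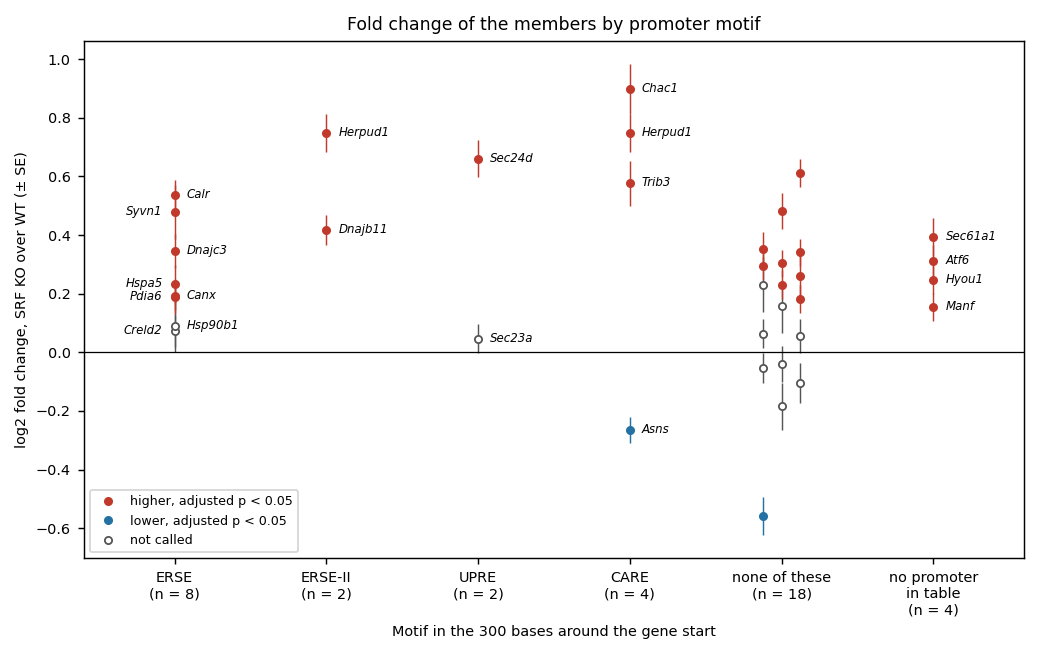
Log2 fold change, SRF KO over WT, of the 37 genes grouped by the motif found in the 300 bases around their start (Herpud1 appears under both ERSE-II and CARE). Points are edgeR estimates, bars ± SE, and colours are as in the plot of fold changes by role. The 8 genes with ERSE and the 18 with none of the motifs have the same median of 0.21, and Asns lies apart from the other CARE genes.

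To see whether the rest of the pathway moved likewise, 10 further lists with 182 genes of ER folding, glycosylation, import, degradation, stress signalling and export were counted. Of 180 tested, 98 were higher (54.4%) and 18 lower, with a median log2 fold change of 0.21. Without WT replicate 2 these counts were 110 and 19. Examples in each list are the called genes with the smallest p, not those with the largest change. Among other chaperones and co-chaperones, 15 of 24 were higher, among them Rcn1 at 0.60 (SE 0.0503, adjusted p 3.2e-06), Ppic at 0.56 (SE 0.0642, adjusted p 3.49e-05) and the cyclophilin Ppib at 0.42 (SE 0.0490, adjusted p 3.78e-05). Of 12 genes of the oligosaccharyltransferase, which attaches the sugar that calreticulin's ligands carry, 8 were higher. In both of these lists 0 genes were lower by edgeR's test, by DESeq2's and at an unadjusted p under 0.05. Its catalytic subunit Stt3a rose by 0.42, Rpn1 by 0.32 and Ddost by 0.39 on the log2 scale. Of 5 glucosidase and folding-check genes 3 rose, Ganab by 0.22, Prkcsh by 0.21 and Uggt1 by 0.19 on the log2 scale. The call of Uggt1 (edgeR adjusted p 0.0134) was lost without SRF KO replicate 2 or WT replicate 1 (adjusted p 0.0556 and 0.0756).

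Of 15 other disulfide genes tested, 8 were higher (53.3%) and 1, Ero1lb, was lower (6.67%), against 21.2% and 21.3% of all genes tested. Without WT replicate 2, 13 were higher, in a fit where 24.3% of all genes tested were higher. Qsox1, an oxidase of the secretory pathway, changed by 0.91, Pdia5 by 0.45 and Dnajc10, an ER reductase, by 0.42. Of 22 other import genes, 11 were higher and 1, Srp68 at -0.14, was lower. The call of Srp68 was lost under DESeq2 (adjusted p 0.0705) and when any library but WT replicate 2 was left out (adjusted p 0.0799 to 0.109). Srprb, a subunit of the receptor for the signal recognition particle, rose by 0.51, the signal peptidase gene Spcs1 by 0.44 and Ssr3, a partner of Ssr1, by 0.32. Of 21 other degradation genes, 9 were higher (42.9%) and 2 lower (9.52%). Without WT replicate 2, 1 of the 21 was lower. Vimp rose by 0.52 and the ubiquitin-conjugating enzyme Ube2j1 by 0.45, while Derl3 and Herpud2 (named after their values were seen, like Srp68) were at -0.43 and -0.20. The call of Derl3 was lost without SRF KO replicate 3 or WT replicate 3 (adjusted p 0.077 and 0.0622), and that of Herpud2 under DESeq2 (adjusted p 0.0789) and without any library but WT replicate 1 (adjusted p 0.0507 to 0.144).

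For export, 15 of 27 were higher (55.6%) and 3 lower (11.1%), against 21.2% and 21.3% of all genes tested. The KDEL receptors Kdelr3 and Kdelr2, which return escaped ER chaperones from the Golgi, rose by 0.61 and 0.49, and the cargo receptor Surf4 by 0.54. Those lower, named after their values were seen, were the coat organiser Sec16a at -0.31, Ergic1 at -0.35 and Sec24c, a relative of Sec24d, at -0.16. The call of Sec24c was lost when any library but WT replicate 2 was left out (adjusted p 0.0517 to 0.108). Collagen folding and hydroxylation was the list with the most calls for its size, 13 of 14 higher. Serpinh1, the collagen chaperone HSP47, had SRF KO values of 332, 315.5 and 319 CPM and WT values of 97.3, 88 and 106 CPM, and its log2 fold change of 1.73 (SE 0.0651, adjusted p 3.57e-09) exceeded that of all 37 members. P4ha2, a catalytic partner of P4hb, and Plod2, a lysyl hydroxylase, rose by 1.003 and 0.54. The exception was Tmem38b, an ER ion channel, at -0.28 (named after its value was seen).

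Among 14 other sensors and stress kinases tested, 4 were higher (28.6%) and 3 lower (21.4%), against 21.2% and 21.3% of all genes tested. Of the relatives of ATF6 that are cut in the same way, 3 rose, Creb3l2 at 1.29 (SE 0.0819, adjusted p 3.39e-07), Creb3l1 at 0.89 (SE 0.0760, adjusted p 3.46e-06) and Creb3 at 0.70 (SE 0.0848, adjusted p 5.51e-05), and Creb3l3 was lower. Ppp1r15b changed by 0.22. Those lower were Eif2ak4, the kinase that senses amino acid shortage, at -0.39, the protease gene Mbtps2, whose product cleaves ATF6, at -0.22 and Creb3l3 at -0.82. The call of Creb3l3 was lost under DESeq2 (adjusted p 0.0733) and without SRF KO replicate 2 or WT replicate 3 (adjusted p 0.086 and 0.0858). Ppp1r15b and these 3 were named after their values were seen. Of 26 other ATF4 targets, 12 were higher (46.2%) and 7 lower (26.9%), against the same 21.2% and 21.3% of all genes. Those lower were 4 with total-count scaling and when any library but WT replicate 2 was left out. The cystine transporter Slc7a11 rose by 1.16, the amino acid transporter Slc7a5 by 0.78 and Atf3 by 0.75. Of those lower, Pycr1 and Cth, enzymes of proline and cysteine synthesis, changed by -0.60 and -0.42, and were named after their values were seen.

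**Figure D5:**
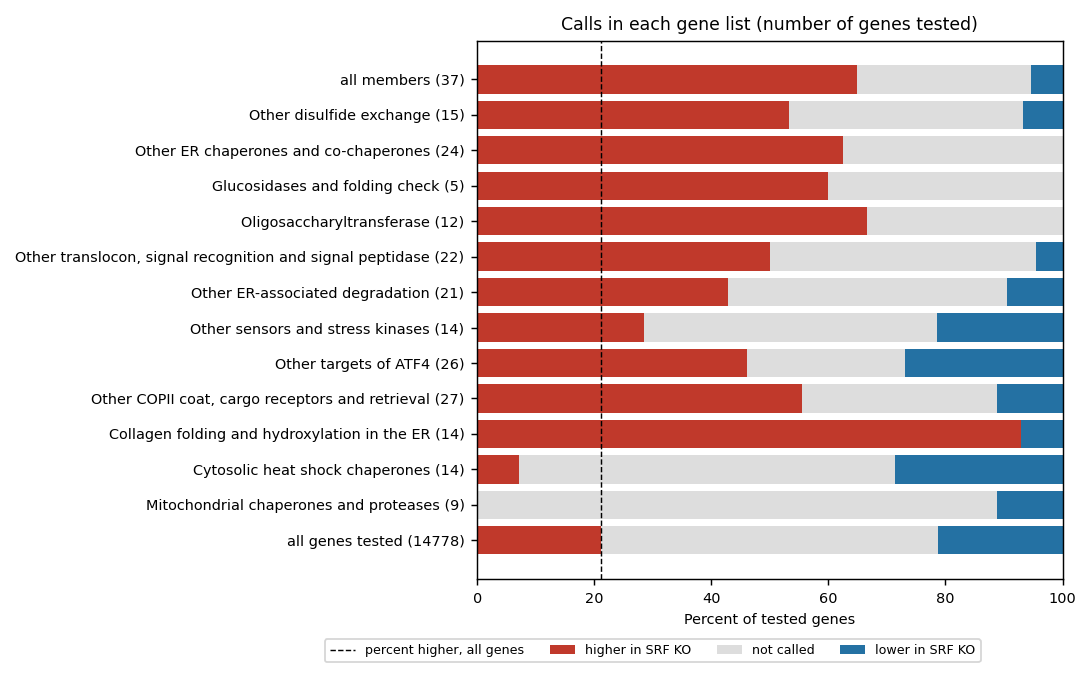
Percent of tested genes called higher (red), lower (blue) or not called (grey) in SRF KO, for the 37 members, 10 further ER lists, 2 lists of chaperones elsewhere in the cell and all genes tested, with the number tested in brackets. The dashed line is the 21.2% of all genes that were higher. The members and the ER lists lie to the right of the line, and the cytosolic and mitochondrial chaperones to its left.

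Chaperones outside the ER were counted in the same way, against 21.2% higher and 21.3% lower of all genes tested. Of 14 cytosolic heat shock chaperones, 1 was higher (7.14%), Bag3 at 0.41 (SE 0.0759, adjusted p 0.0012), and 4 were lower (28.6%). Those higher were 3 without WT replicate 2, and those lower were 2 without SRF KO replicate 1 or 3. The cytosolic Hsp90 gene Hsp90aa1, a relative of Hsp90b1, had SRF KO values of 4240, 4594 and 4396 CPM and WT values of 5669, 6593 and 5303 CPM and changed by -0.41 (SE 0.0746, adjusted p 0.00106). Hspb8 changed by -0.53, and Hsp90ab1 and Hspa4l (named after their values were seen) by -0.19 and -0.33. The call of Hsp90ab1 was lost without SRF KO replicate 1 or 3 (adjusted p 0.082 and 0.0554), and that of Hspa4l under DESeq2 (adjusted p 0.0518) and without any library but WT replicates 1 and 3 (adjusted p 0.0652 to 0.152). Of 9 mitochondrial chaperones and proteases, 0 were higher by edgeR's test, by DESeq2's and at an unadjusted p under 0.05. Of these 9, 1 was lower (11.1%), Lonp1 at -0.24 (SE 0.0475, adjusted p 0.00197). Without WT replicate 2, 1 was higher and 3 lower, and with a replicate block 2 were higher and 3 lower. The differences between these lists and the members were not tested.

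Markers of extraembryonic endoderm and of fibroblasts were higher in SRF KO, while calls among trophoblast and pluripotent cell markers went in both directions. All 18 tested of 20 extraembryonic endoderm markers were higher, with a summed level of 4376 to 4697 CPM in SRF KO and 669.9 to 711.5 CPM in WT. Apoa4 and Ttr had no count in any WT library, and Afp was at or under 3 counts in every library of both groups. All 15 fibroblast markers were higher, with sums of 1521 to 1848 CPM in SRF KO and 736 to 857 CPM in WT, and none was at 0 in a whole group. Of 8 trophoblast markers tested, 1 was higher (12.5%) and 3 lower (37.5%), against 21.2% and 21.3% of all genes tested. Their sums were 105 to 110.3 CPM in SRF KO and 136 to 147 CPM in WT. Of 12 pluripotent cell markers, 1 was higher (8.33%) and 5 lower (41.7%), with sums of 6009 to 6142 CPM in SRF KO and 7061 to 7581 CPM in WT. Without WT replicate 2 those lower were 8, in a fit where 25.4% of all genes tested were lower. The part of such cells in the rises of the ER genes was not tested.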

How the data were processed

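RNA of 3 SRF KO and 3 WT samples was extracted with TRIzol and sequenced as 150 bp read pairs on an Illumina HiSeq instrument, after which the submitters discarded adaptor and low-quality sequence and empty reads, per the labels' protocols. The deposited table holds raw counts, whole numbers for 24421 genes and 1146 transposable element subfamilies, 1 column a library. Its values show no normalization. The submitters' processing notes name mm10 and DESeq2 with no role. The aligner, counter, annotation and strand setting are not given in the sources used here, so that reads of pseudogenes and overlapping genes may have been counted with a member.

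All entries were fitted together with edgeR 4.0.16 in R 4.3.3 (filterByExpr with a minimum count of 10, TMM scaling, quasi-likelihood test, Benjamini-Hochberg adjustment, threshold 0.05), without a replicate term. CPM are TMM-scaled, and SDs are over 3 libraries. The script was tested on simulated data. A gene of 100 counts has a counting error of 10%, whatever the library total. Levels between genes are per kilobase of merged GENCODE M21 exons, which were found for 99.4% of the genes tested. Sequences are RefSeq's. In the promoter table, 30 of 34 windows of members matched a transcript of the gene in sense and none in antisense. The level of 10 CPM for a second background and the marker lists' counts without WT replicate 2 were chosen after the data were seen.

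The members and all lists were chosen with earlier results of these data known. Values are given for the 3 sensors, Hspa5, Xbp1, Atf4, Ddit3, up to 3 called genes with the smallest p in each list, and up to 2 in each marker list. Of the genes this rule names, 1 is not reported here. Alternatives were DESeq2 1.42.0, its size factors, total-count scaling, no filter, genes alone, a threshold of 0.01, each library left out and a replicate block.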

Additional observations from a re-analysis of the deposited data

How the results depend on the processing

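The counts of 24 members higher and 2 lower stayed within 1.5 times under all 13 alternatives, and no member or other named gene changed direction. Across the 6 fits that each left out 1 library, 21 to 25 members were higher and 2 lower, and Srf was between -3.23 and -2.98. The members' median log2 fold change was 0.27 with total counts in place of TMM and 0.23 to 0.27 with 1 library left out. Of the 26 members called, 22 kept their call under every alternative. Hspa5, Canx, Sdf2l1 and Manf lost theirs in at least 1 fit without a library and at a threshold of 0.01, and of the members not called Hsp90b1, Pdia4 and Sec61b gained a call in at least 1 fit. In the 10 other ER lists, genes lower went from 18 to 10 at an adjusted p under 0.01 and to between 11 and 19 with 1 library left out (11 when WT replicate 3 or SRF KO replicate 2 was left out), and genes higher were between 83 and 110. The cause was not tested.

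The labels do not say whether replicate numbers pair libraries across groups. Same-numbered libraries deviated from their group means with correlations of 0.0574, 0.383 and 0.236. Without values for differently numbered libraries beside them, these cannot decide whether libraries were paired. A replicate block raised the genes called from 6273 to 7512 of 14778 tested. With a replicate block, 25 members were higher and 2 lower, Sec61b being the addition, their median was 0.24, Srf was at -3.12, and 114 genes of the other ER lists were higher and 20 lower. Depth limits the low members most, such as Ern1 and Sdf2l1, at 9.56 to 18.9 CPM.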

Other observations

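ERSE was also searched for in genes outside the 37 members. Of 11 such genes with it that were tested, 1 was higher in SRF KO, 4 were lower and 6 were not called, against 21.2% higher and 21.3% lower of all genes tested, with a median log2 fold change of -0.24. Spats2l was higher at 0.41 (edgeR adjusted p 0.0229). Acacb, an enzyme of fatty acid metabolism, was lower at -0.58 (adjusted p 3e-05), Adcy3 at -0.43 (adjusted p 0.00164), Derl3, a degradation factor known as an XBP1 target, at -0.43 (adjusted p 0.0166), and Hnrnpa3 at -0.24 (adjusted p 0.0140). The difference from the members was not tested. These genes were named after their values were seen.

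Of the other genes with CARE, 296 were tested, of which 75 were higher and 72 lower. For the CArG box, the counts were 40 higher and 43 lower of 164. For UPRE, they were 33 higher and 18 lower of 116. Over all genes tested, 21.2% were higher and 21.3% lower, and differences of the motif groups from these shares were not tested.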
